A study of Mus musculus with 8 samples.

Results

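The 9 genes described here encode proteins that act on the cytoplasmic side of PSGL-1 (gene symbol Selplg), the leukocyte glycoprotein that binds selectins. They were taken by name: the membrane-to-actin linkers Ezr, Msn and Rdx, the sorting nexin Snx20, the kinases Fgr, Lyn and Syk, the phospholipase Plcg2 and the lipid kinase subunit Pik3cg. Every probe that carried one of these names, directly or through its RefSeq transcript, was included, which gave 18 probes of the 60273 gene probes on the array and 9 of its 47242 distinct names.

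Wild-type mice had received bone marrow of Psgl1-/- or Psgl1+/+ donors, marked with DsRed, a red fluorescent protein, before a middle cerebral artery was closed for 30 min and reopened. After 7 days of reperfusion the ischemic tissue was dissociated, and cells that were viable, DsRed+, CD11b+ and CD45 high but Ly6G- and CD3- were sorted, so both groups were donor-derived myeloid cells in wild-type hosts and differed by the donor genotype. RNA of 4 Psgl1-/- samples (replicates 5 to 8) and 4 Psgl1+/+ samples (replicates 1 to 4) was hybridised to 1 single-colour array each. How many animals made up a sample is not stated, and all p-values refer to the variation among these 8 samples, some of which may be technical. The age, sex and strain of the mice were not stated, and neither was the part of Selplg that the knockout lacks. The comparison asks whether the RNA of the PSGL-1 partners differed with the donor's PSGL-1 genotype.

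When a selectin binds PSGL-1 on a rolling leukocyte, the signal runs through the short tail of PSGL-1. Ezrin, moesin and radixin, the ERM proteins, tie such tails to cortical actin, and in mouse neutrophils the Src family kinases Fgr and Lyn and then Syk are activated. Syk acts on Btk, phospholipase C gamma 2 and phosphoinositide 3-kinases, and the pathway ends in activation of the small GTPase Rap1 and of integrins, which slows rolling. Snx20, a sorting nexin also known as selectin ligand interactor cytoplasmic-1, binds the PSGL-1 tail and endosomal membranes.

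None of the 18 probes differed between the genotypes past the threshold, a limma adjusted p under 0.05 over all probes tested (the lowest of the 18, that of Ezr, was 0.473). Of all 51380 probes tested, 9 passed (0.0175%), all higher in the Psgl1-/- arrays. At an unadjusted p under 0.05 stood 1 of the 18 probes, that of Ezr, against 10.4% of all tested probes. The groups overlapped for all 18, while 11.3% of all tested probes had groups without overlap. Of the 18 differences 11 lay above the median of all tested probes, which splits them at 50%. Of the 18, 8 were above 0 and 10 below, with a median of -0.27 on the log2 scale, and over all tested probes 31.4% were above 0 with a median of -0.33. That median depended on the scaling between arrays, being -0.16 when arrays were quantile normalized, -0.18 when their medians were made equal and 0.00 with cyclic loess, so differences below are to be read beside it.

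All log2 signals below are processed spot intensities scaled to the 75th percentile of each array, and they compare arrays for 1 probe, not probes with each other. The 75th percentile itself was 832.2 to 956.6 intensity units on the Psgl1-/- arrays and 518.3 to 746.9 on the Psgl1+/+ arrays, and 76.2% to 88.2% of gene spots on the Psgl1-/- arrays and 76.1% to 86.8% on the Psgl1+/+ arrays were well above background. The Selplg probe was well above background on all 8 arrays, at 13.25, 13.45, 13.15 and 12.87 on Psgl1-/- replicates 5 to 8 and 13.8, 12.67, 13.05 and 15.75 on Psgl1+/+ replicates 1 to 4. The difference of -0.64 (SE 0.65, limma adjusted p = 0.684) rested on Psgl1+/+ replicate 4 and was 0.01 without it, a setting chosen for this probe after its values were seen. Since the deleted part of the gene is not known here, that probe checks nothing about the labels, and all directions rest on the labels. All 11 macrophage and monocyte markers were well above background on all 8 arrays. So were 57 of 65 markers in 10 lists of other cell types, among them 9 of 10 neutrophil and 6 of 7 T cell markers. None of the markers was below background throughout. Of all 60273 gene probes, 40531 were well above background on all 8 arrays. The mean of the neutrophil markers was 8.53 to 9.89 on the Psgl1-/- arrays and 7.41 to 9.12 on the Psgl1+/+ arrays. Single neutrophil markers went both ways. Ly6g, S100a8, S100a9, Mpo and Ngp averaged higher in Psgl1-/- arrays, S100a9 at 12.45 against 7.67. Csf3r, Cxcr2, Elane, Camp and Ltf averaged lower, Camp at 7.75 against 8.44. The mean of the T cell markers was 7.79 to 8.50 on the Psgl1-/- arrays and 8.41 to 8.88 on the Psgl1+/+ arrays. In every list the ranges of the genotypes overlapped. The part of such cells in the values below was not tested, and in bulk RNA fewer cells of a type and less RNA per cell cannot be told apart.

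Of the 9 genes 5 had more than 1 probe, and the probes of a gene read different stretches of its transcripts. The sequences of the Ezr, Rdx and Lyn probes are shown because the results turn on them: Ezr had the smallest p, and the probes of Rdx and of Lyn disagreed. The second Rdx probe and the third Lyn probe are given whole, and the others by their first 30 bases, 5′ to 3′ as in the array files, all in lower case.
Ezr (chromosome 17): attgtgagcaacttgttcccgttttcagtt
Rdx probe 1 (chromosome 9): ttgcattgtgtacattatcattgctacatc
Rdx probe 2 (chromosome 9): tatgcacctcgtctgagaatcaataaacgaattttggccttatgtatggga
Lyn probe 1 (chromosome 4): tgattggaaactgctgtgtctgcccctttc
Lyn probe 2 (chromosome 4): ccatggggaaggttctgtccaaagaggcag
Lyn probe 3 (chromosome 4): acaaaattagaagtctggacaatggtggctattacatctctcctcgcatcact
The array files list 2 RefSeq transcripts for Rdx probe 1 and 3 for Rdx probe 2, and place Lyn probe 2 at chr4:3740184-3740243 of build mm9. The files place 4 further probes on mm9, Msn probe 2 at chrX:93349314-93349373, Msn probe 3 at chrX:93347069-93347128, Syk probe 3 at chr13:52708988-52709047 and Syk probe 4 at chr13:52738924-52738983. No exon annotation of that build was used here, so where in the genes these probes lie was not determined.

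**Figure D1:**
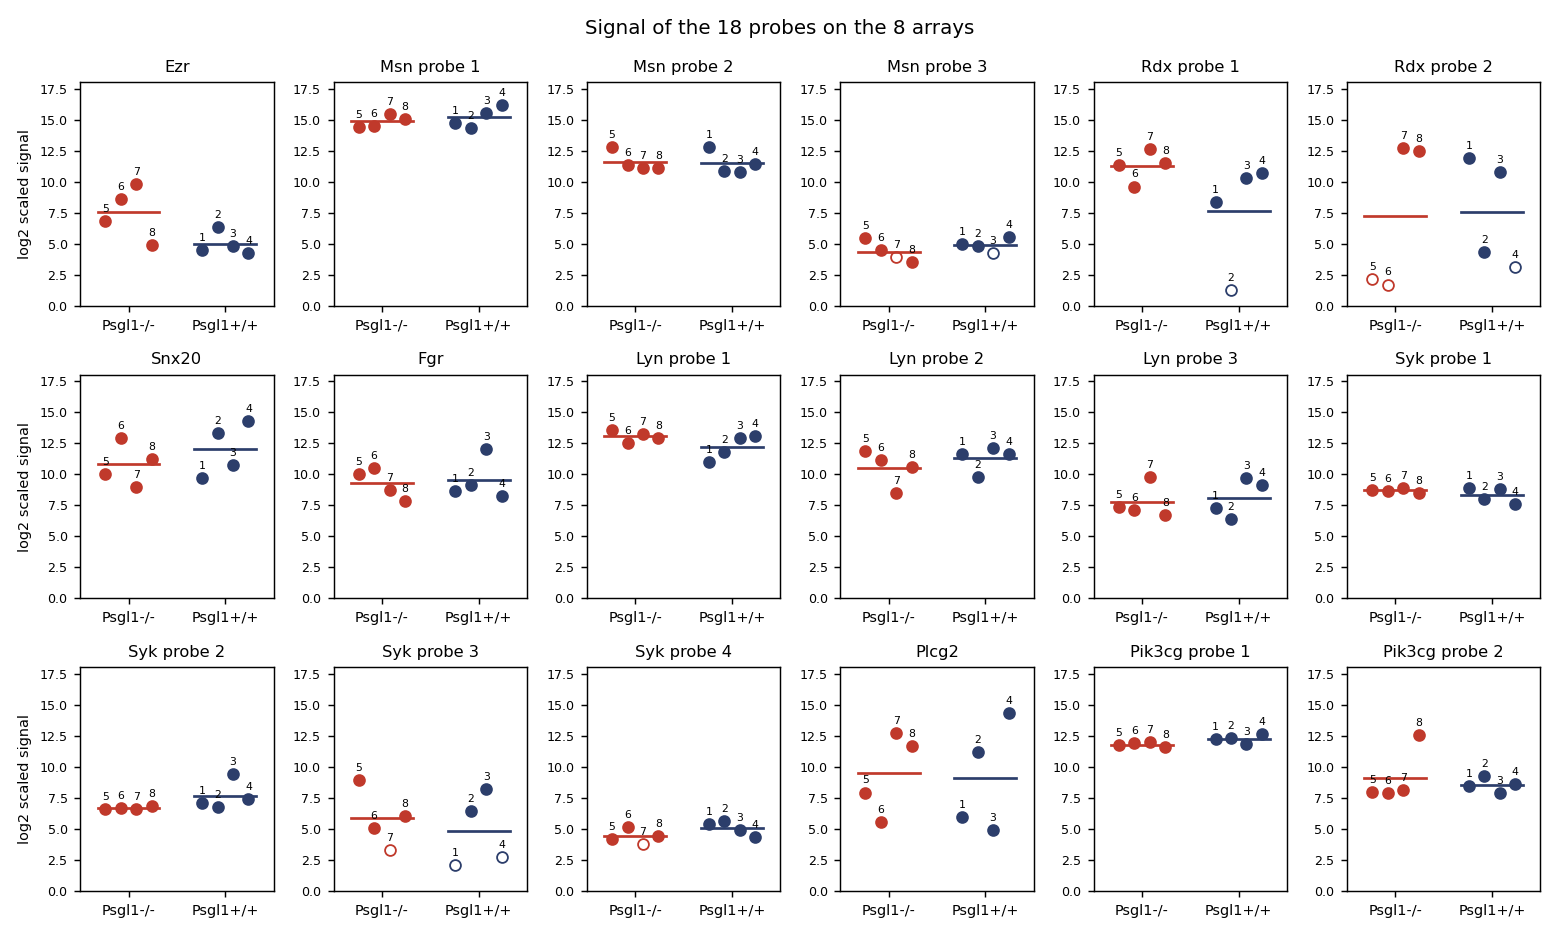
Log2 scaled signal (y axis) of each of the 18 probes on the 4 Psgl1-/- arrays (left in each panel) and the 4 Psgl1+/+ arrays (right). Points are arrays with their replicate number, open points were not well above background, and lines are group means. The groups overlap in every panel, and within a group Rdx probe 2 spans 1.72 to 12.72.

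Ezr, which encodes ezrin, was read by 1 probe that cleared background on all 8 arrays but was dim on the Psgl1+/+ arrays. It was 20.72, 79.92, 23.57 and 13.57 intensity units on replicates 1 to 4, below the array medians of 138.9, 143.7, 104.9 and 99.55. Psgl1-/- replicates 5 and 8 were below their array medians too, at 129.8 and 37.58 against 155.4 and 159.8. The log2 values were 6.82, 8.58, 9.84 and 4.87 on Psgl1-/- replicates 5 to 8 and 4.49, 6.32, 4.85 and 4.29 on Psgl1+/+ replicates 1 to 4. Of the Psgl1-/- arrays 3 lay above all Psgl1+/+ arrays, while replicate 8 lay below Psgl1+/+ replicate 2. The means were 7.53 ± 2.16 and 4.99 ± 0.92 (SD, n = 4 each), a difference of 2.54 or 5.82-fold (SE 1.06, 95% interval 0.08 to 5.0, limma adjusted p = 0.473). It did not pass the threshold in any of 23 other settings, where the adjusted p was 0.42 to 0.871, although the sign was positive in each (1.42 to 3.66). With normexp and quantile normalization the difference was 1.59.

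Msn, which encodes moesin, the ERM protein most typical of leukocytes, had 3 probes. Probe 1 gave 14.41, 14.51, 15.42 and 15.07 on Psgl1-/- replicates 5 to 8 and 14.72, 14.32, 15.51 and 16.16 on Psgl1+/+ replicates 1 to 4. The difference was -0.33 (SE 0.47, 95% interval -1.41 to 0.76, limma adjusted p = 0.779), equal to the median of all tested probes, and it turned positive after quantile normalization (0.20) and cyclic loess (0.12). Within each genotype the 2 highest arrays were the same ones in which the mean of the macrophage markers was highest. That marker mean was 12.98 and 12.11 on Psgl1-/- replicates 7 and 8 against 10.67 and 10.83 on replicates 5 and 6, and 12.07 and 11.80 on Psgl1+/+ replicates 3 and 4 against 10.61 and 10.47 on replicates 1 and 2. These were also the arrays of slide columns 2 and 4. The part of either in the moesin signal was not tested.

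The other Msn probes carried Ensembl transcript names. Probe 2 gave 12.82, 11.32, 11.07 and 11.07 on Psgl1-/- replicates 5 to 8 and 12.83, 10.85, 10.77 and 11.42 on Psgl1+/+ replicates 1 to 4, so 1 array of each genotype stood above the rest (difference 0.10, SE 0.60, limma adjusted p = 0.95). Probe 3 was dim, well above background on 3 of 4 arrays of each genotype, with means of 4.34 ± 0.83 in Psgl1-/- and 4.89 ± 0.53 in Psgl1+/+ arrays (SD, n = 4 each, difference -0.54, SE 0.48, limma adjusted p = 0.637). For moesin the unadjusted interval of probe 1 leaves room for a Psgl1-/- level between 0.375 and 1.70 times that of Psgl1+/+. This interval does not give the smallest difference that these arrays could detect. The larger difference of Ezr (5.82-fold) did not pass the threshold either (limma adjusted p = 0.473).

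Rdx, which encodes radixin, varied more between arrays of a genotype than nearly all other probes. Probe 1 gave 11.35, 9.61, 12.62 and 11.5 on Psgl1-/- replicates 5 to 8 and 8.38, 1.24, 10.32 and 10.66 on Psgl1+/+ replicates 1 to 4. Psgl1+/+ replicate 2 was not above background and its value is a surrogate set by the scanner software, and the other arrays overlapped between the genotypes. The difference was 3.62 (SE 2.03, 95% interval -1.10 to 8.34, limma adjusted p = 0.497), and it was 1.48 without Psgl1+/+ replicate 2. Probe 2 gave 2.16, 1.72, 12.72 and 12.50 on Psgl1-/- replicates 5 to 8 and 11.89, 4.35, 10.78 and 3.16 on Psgl1+/+ replicates 1 to 4. It was thus bright on 2 arrays of each genotype and far dimmer on the other 2, of which Psgl1+/+ replicate 2 alone was well above background. Its difference was -0.27 (SE 3.37, 95% interval -8.09 to 7.55, limma adjusted p = 0.978), and 99.97% of tested probes had a smaller pooled SD, as had 96.29% for probe 1. On Psgl1-/- replicates 5 and 6 probe 1 was well above background while probe 2 was not, although the files list the transcripts of probe 1 for probe 2 as well.

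Snx20 was read by 1 probe, well above background on all arrays. It gave 10.00, 12.92, 8.95 and 11.24 on Psgl1-/- replicates 5 to 8 and 9.71, 13.31, 10.74 and 14.26 on Psgl1+/+ replicates 1 to 4. The low and high arrays were those of the 2 rows of the slide: row 1, with replicates 6, 8, 2 and 4, was at 11.24 to 14.26 and row 2, with replicates 5, 7, 1 and 3, at 8.95 to 10.74. The difference of -1.23 (SE 1.23, 95% interval -4.08 to 1.63, limma adjusted p = 0.678) was the lowest among the 18 probes. With slide row as a block its SE was 0.55 (adjusted p = 0.52), and within row 1 the difference was -1.70 and within row 2 it was -0.75.

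Of the Src family kinases, Fgr was read by 1 probe and Lyn by 3. Fgr, a kinase of neutrophils, monocytes and macrophages, gave 9.99, 10.51, 8.70 and 7.80 on Psgl1-/- replicates 5 to 8 and 8.62, 9.15, 12 and 8.28 on Psgl1+/+ replicates 1 to 4. The difference was -0.26 (SE 0.95, limma adjusted p = 0.918). Psgl1+/+ replicate 3 was the highest of all arrays, and without it the sign turned (0.57, adjusted p = 0.733).

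Lyn encodes a kinase with activating and inhibitory roles in myeloid cells. Probe 1 gave 13.52, 12.50, 13.23 and 12.93 on Psgl1-/- replicates 5 to 8 and 11, 11.78, 12.89 and 13.10 on Psgl1+/+ replicates 1 to 4. The Psgl1-/- arrays lay within the upper part of the Psgl1+/+ range or just above it, and the difference of 0.85 (1.80-fold, SE 0.52, 95% interval -0.35 to 2.06, limma adjusted p = 0.518) was positive in every setting tried (0.08 to 1.62). Probe 2 gave 11.85, 11.13, 8.47 and 10.61 on Psgl1-/- replicates 5 to 8 and 11.66, 9.74, 12.13 and 11.61 on Psgl1+/+ replicates 1 to 4 (difference -0.77, SE 0.82, limma adjusted p = 0.699). Probe 3 gave 7.35, 7.09, 9.81 and 6.68 on Psgl1-/- replicates 5 to 8 and 7.26, 6.39, 9.70 and 9.10 on Psgl1+/+ replicates 1 to 4 (difference -0.38, SE 0.95, limma adjusted p = 0.878). The 3 probes ordered the arrays differently: Psgl1-/- replicate 7 was the highest array by probe 3 and the lowest by probe 2.

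Syk, the tyrosine kinase that docks on phosphorylated ITAM adaptors such as Fcer1g and Tyrobp, had 4 probes. Probe 1 was steady, at 8.75, 8.68, 8.88 and 8.46 on Psgl1-/- replicates 5 to 8 and 8.87, 8.0, 8.81 and 7.58 on Psgl1+/+ replicates 1 to 4, a difference of 0.38 (SE 0.36, 95% interval -0.45 to 1.20, limma adjusted p = 0.656). All arrays of slide row 1 were lower than those of row 2, and with row as a block the SE was 0.29 (adjusted p = 0.598). Probe 2 gave 6.61, 6.70, 6.62 and 6.87 on Psgl1-/- replicates 5 to 8 and 7.05, 6.78, 9.44 and 7.41 on Psgl1+/+ replicates 1 to 4. In probe 2 the groups overlapped only through Psgl1-/- replicate 8 and Psgl1+/+ replicate 2, and the difference was -0.97 (SE 0.58, 95% interval -2.31 to 0.37, limma adjusted p = 0.51). Without Psgl1+/+ replicate 3, the highest array, it was -0.38. Probes 3 and 4 were dim and not well above background on 3 arrays and 1 array, and averaged 5.84 ± 2.35 and 4.38 ± 0.58 in Psgl1-/- against 4.86 ± 2.95 and 5.06 ± 0.58 in Psgl1+/+ arrays (SD, n = 4 each). Their differences were 0.98 and -0.67 (SE 1.68 and 0.42, limma adjusted p = 0.816 and 0.52). By probe 1 the data leave room for a Psgl1-/- level of Syk between 0.733 and 2.30 times that of Psgl1+/+.

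Plcg2, the phospholipase C isoform of myeloid and B cells that makes inositol trisphosphate and diacylglycerol, was read by 1 probe with a wide spread. It gave 7.92, 5.56, 12.68 and 11.70 on Psgl1-/- replicates 5 to 8 and 5.97, 11.15, 4.91 and 14.30 on Psgl1+/+ replicates 1 to 4. Each genotype had 2 arrays above 11 and 2 below 8, and all arrays were well above background. The difference was 0.39 (SE 2.45, 95% interval -5.32 to 6.09, limma adjusted p = 0.954), and 98.8% of tested probes had a smaller pooled SD. Its sign changed with single arrays, from -1.01 without Psgl1+/+ replicate 3 to 2.12 without Psgl1+/+ replicate 4.

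Pik3cg encodes the p110 gamma catalytic subunit of the phosphoinositide 3-kinase of leukocytes that G protein-coupled receptors activate. Probe 1 was the steadiest of the 18, with 8.58% of tested probes at a smaller pooled SD. It gave 11.71, 11.87, 11.98 and 11.56 on Psgl1-/- replicates 5 to 8 and 12.23, 12.27, 11.83 and 12.66 on Psgl1+/+ replicates 1 to 4. Psgl1+/+ replicate 3 fell within the Psgl1-/- range and the other Psgl1+/+ arrays lay above it. The difference was -0.47 (0.723-fold, SE 0.27, 95% interval -1.09 to 0.15, limma adjusted p = 0.499), which is 0.14 below the median of all tested probes. It was negative in all 23 other settings (-0.75 to -0.18). Probe 2 gave 7.93, 7.86, 8.14 and 12.54 on Psgl1-/- replicates 5 to 8 and 8.45, 9.25, 7.86 and 8.57 on Psgl1+/+ replicates 1 to 4. Its positive difference of 0.58 (SE 1.06, limma adjusted p = 0.828) rested on Psgl1-/- replicate 8, and without that array it was -0.56.

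**Figure D2:**
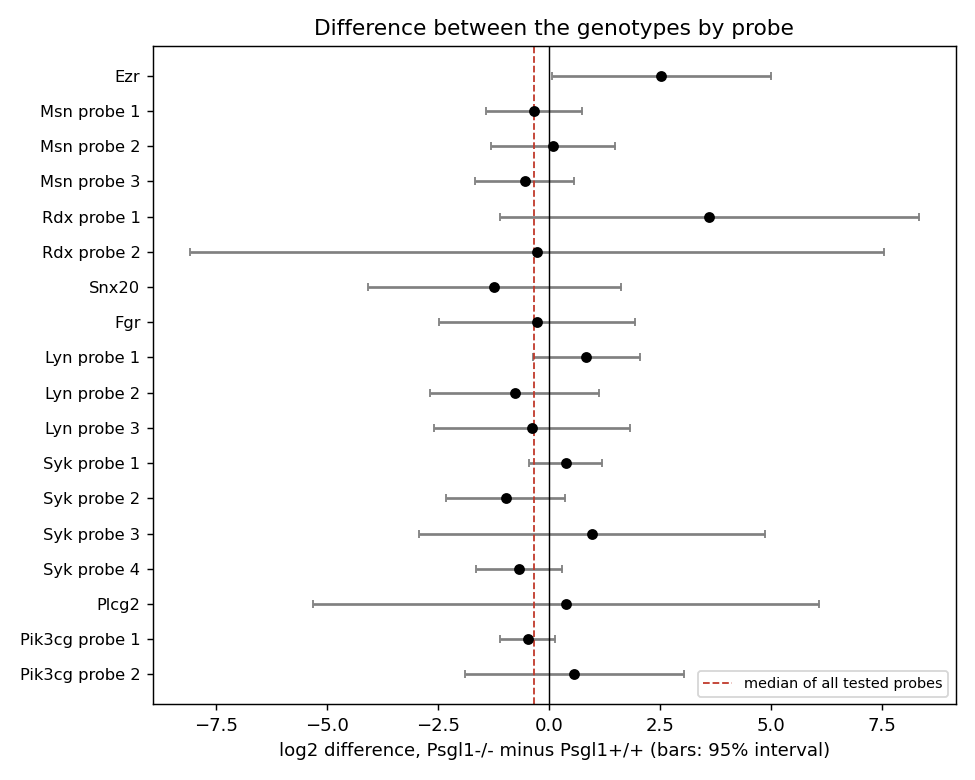
Log2 difference, Psgl1-/- minus Psgl1+/+ (x axis), of each of the 18 probes with its 95% interval from limma. The dashed line is the median of all tested probes (-0.33). The interval of Ezr (0.08 to 5.0) is the only one that leaves out 0, before adjustment for the number of probes.

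Msn, Rdx, Lyn, Syk and Pik3cg were read by several probes, and in all 5 the probes had differences of both signs. Of the 6470 genes with several tested probes on the array, 47.1% had both signs. At the reported scaling, a direction for any of these 5 genes therefore depends on which probe is read. Both Rdx probes were positive with cyclic loess (3.86 and 0.04) and with normexp and quantile normalization (2.42 and 0.48), and in some settings with fewer arrays all probes of Msn, Rdx, Lyn or Pik3cg had 1 sign. The pooled SD of the members ranged from 0.27 for Pik3cg probe 1 to 5.37 for Rdx probe 2, and their median standard error of 0.89 was above the 0.53 of all tested probes.

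**Figure D3:**
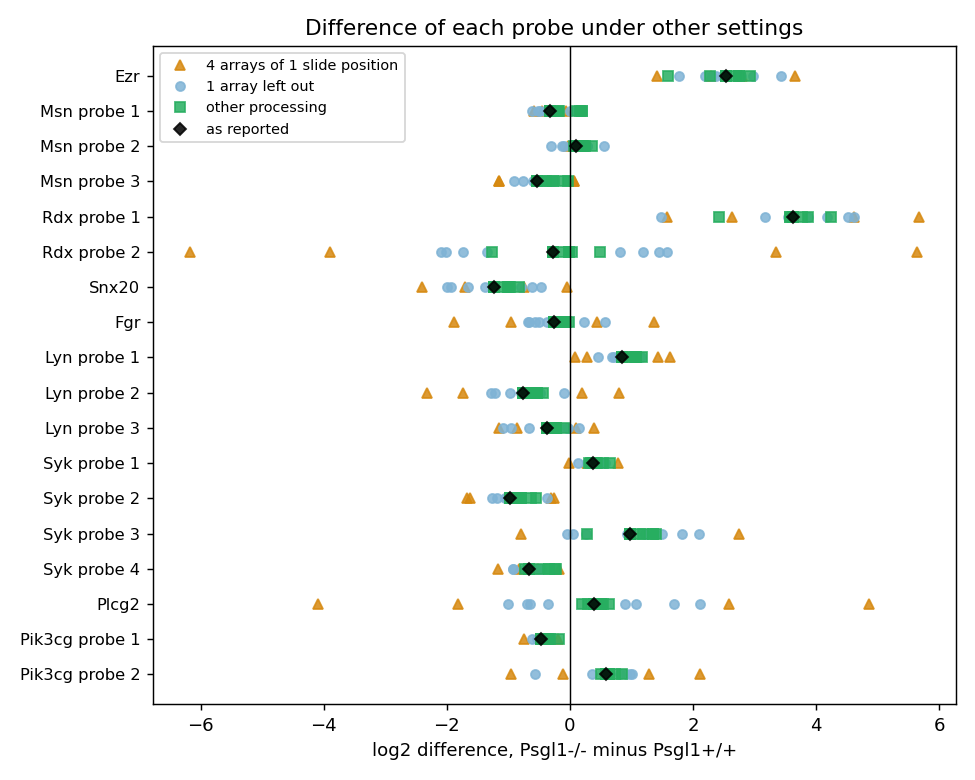
Log2 difference, Psgl1-/- minus Psgl1+/+ (x axis), of each of the 18 probes under each setting: as reported, with other processing, with 1 array left out, and in the 4 arrays of a pair of slide columns or of 1 slide row. Ezr, Rdx probe 1 and Lyn probe 1 stay above 0 throughout, Snx20, Syk probes 2 and 4 and Pik3cg probe 1 stay below 0, and Rdx probe 2 ranges from -6.18 to 5.64.

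The proteins around these 9 were followed in 5 lists of 90 genes, of which 87 were tested through their brightest tested probe. None passed the threshold (limma), against 0.0175% of all probes. At an unadjusted p under 0.05, 9 were higher and 3 lower in the Psgl1-/- arrays, against 1.62% of all probes higher and 8.8% lower. Above 0 were 42 of the 87 differences and below 0 were 45, with a median of -0.01, a split that became 60 and 27 with cyclic loess. Pip5k1b, Yes1 and Pik3ca did not clear background on enough arrays to be tested. Among the 23451 genes named through RefSeq and read in the same way, 32.8% of differences were above 0 and the median was -0.31. At an unadjusted limma p under 0.05, 1.94% of these genes were higher and 8.19% lower. The lists were chosen with earlier results of these data known, so the counts are a description only.

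The list of ERM regulators, kinases and phosphatidylinositol enzymes that open or hold ERM proteins and the receptors they bind, had 2 of 14 tested genes above 0 and a median of -0.31. Stk10, a kinase that phosphorylates ERM proteins in lymphocytes, averaged 8.09 ± 1.81 in Psgl1-/- and 4.74 ± 1.25 in Psgl1+/+ arrays (SD, n = 4 each), a difference of 3.35 (SE 0.99, limma adjusted p = 0.473). Stk10 was dim on the Psgl1+/+ arrays, of which 3 of 4 were well above background. Pip5k1a, which makes the lipid that ERM proteins bind, differed by -0.45 (adjusted p = 0.487; its other probe -0.02). Spn, the sialomucin CD43 and another ERM ligand, differed by -1.62 (adjusted p = 0.598; its other probe -0.51), with both signs among the settings tried (-3.64 to 0.41).

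Of 11 tested Src family kinases and regulators 3 were above 0, with a median of -0.38. The kinase Src itself was lower on all 4 Psgl1-/- arrays, at 6.46, 6.47, 6.27 and 6.05 against 6.78, 6.69, 6.66 and 6.90 on the Psgl1+/+ arrays, but by only -0.44 (SE 0.23, limma adjusted p = 0.485). Groups without overlap in this direction were found for 10.6% of all tested probes. Csk, which shuts off Src family kinases, differed by -0.79 (adjusted p = 0.494) and the phosphatase Ptpn11 by 2.29 (adjusted p = 0.49), the second with both signs among the settings (-0.41 to 4.99).

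Of 22 genes listed as ITAM adaptors, Syk substrates and related proteins 11 were above 0 and 11 below, with a median of 0.02. Btk, the Tec family kinase downstream of Syk, gave 8.99, 10.61, 11.43 and 10.41 on Psgl1-/- replicates 5 to 8 and 8.61, 7.99, 8.55 and 7.82 on Psgl1+/+ replicates 1 to 4. All Psgl1-/- arrays lay above all Psgl1+/+ arrays, as for 0.654% of all tested probes, and the difference was 2.12 (SE 0.52, limma adjusted p = 0.473). The adaptor Grb2 differed by 1.31 (adjusted p = 0.473) and Hcst, which encodes the adaptor DAP10, by -0.73 (adjusted p = 0.473).

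Of 27 tested genes of phosphoinositide 3-kinase, phospholipase C gamma and Rap1 output 17 were above 0, with a median of 0.39. Rasgrp2, the exchange factor CalDAG-GEFI that loads Rap1, gave 11.54, 9.88, 13.43 and 11.58 on Psgl1-/- replicates 5 to 8 and 6.74, 7.55, 6.25 and 6.53 on Psgl1+/+ replicates 1 to 4. The groups were apart by 4.84 on average (SE 0.72), yet the limma adjusted p was 0.248 and did not pass in any setting (0.0769 to 0.804). The other tested Rasgrp2 probe differed by -0.70 (adjusted p = 0.503). The kinase p38 alpha (Mapk14) differed by 2.11 (adjusted p = 0.473; its other probe -0.96) and kindlin-3 (Fermt3), which activates integrins, by 2.48 (adjusted p = 0.473).

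Of 13 genes listed as other PSGL-1 tail binders, sorting nexins and related genes, 9 were above 0 and 4 below, with a median of 1.02. The list included the deleted gene Selplg and the clathrin coat genes Cltc and Ap2m1. Clathrin heavy chain (Cltc) averaged 12.72 ± 0.98 in Psgl1-/- and 10.52 ± 0.53 in Psgl1+/+ arrays (SD, n = 4 each), a difference of 2.20 (SE 0.53, limma adjusted p = 0.473) with no overlap. The endocytic sorting nexin Snx9 gave 11.74, 6.04, 11.61 and 10.01 on Psgl1-/- replicates 5 to 8 and 4.96, 4.87, 4.14 and 5.61 on Psgl1+/+ replicates 1 to 4. Snx9 was dim on the Psgl1+/+ arrays, of which 3 of 4 were well above background. Its difference was 4.96 (SE 1.22, limma adjusted p = 0.473), and of its other probes 1 differed by 5.05 (adjusted p = 0.0584) and the other by -0.10 (adjusted p = 0.987). Without Psgl1-/- replicate 6, the lowest of its group, Snx9 was the single list gene that passed (difference 6.23, adjusted p = 0.0441). Snx27, a sorting nexin of the recycling pathway, differed in the other direction by -4.83 (SE 1.47, limma adjusted p = 0.473), with overlapping groups. Psgl1+/+ replicate 1, at 5.40, lay below Psgl1-/- replicate 5, at 6.29, and 3 of the 4 Psgl1-/- arrays were well above background.

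**Figure D4:**
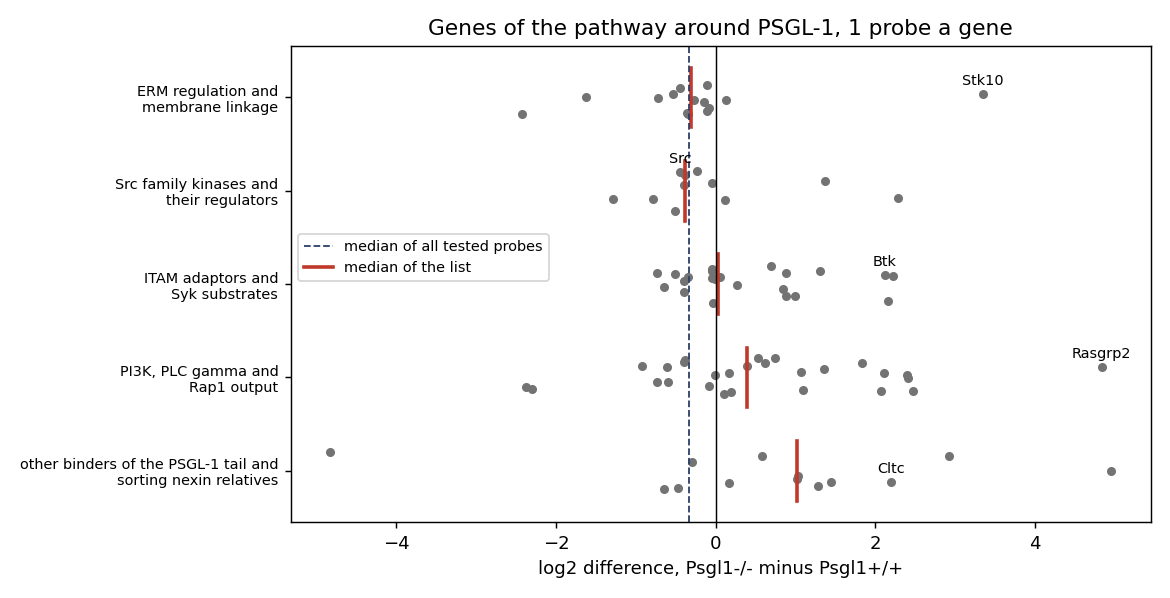
Log2 difference, Psgl1-/- minus Psgl1+/+ (x axis), of the 87 tested genes of 5 lists, 1 point a gene through its brightest probe. Red bars are list medians, from -0.38 to 1.02, the dashed line is the median of all tested probes (-0.33), and the gene with the smallest p of each list is named.

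The gene whose pattern over the 8 arrays came closest to each member's brightest probe was found among RefSeq-named genes by the root mean square difference of log2 signals, each centred on its own mean. For Msn this was the ribosomal protein gene Rpl23 (0.12 log2 units, where Msn itself had an SD of 0.65 over the arrays), for Lyn it was the clathrin assembly gene Picalm (0.26, SD 0.84) and for Syk the potassium channel gene Kcnj6 (0.18, SD 0.48). For Pik3cg it was Mir8096 (0.08, SD 0.35), for Fgr Cited1 (0.49, SD 1.38), for Snx20 Foxred2 (0.52, SD 1.91) and for Ezr Cox19 (0.69, SD 2.05). The nearest genes of the widely spread Rdx and Plcg2 probes were Agps (0.93, SD 3.56) and Hspa1b (1.19, SD 3.62). With 8 arrays and 23450 genes searched for each member, a close match is a description of these arrays only.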

How the data were processed

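Per the file headers, each sample was read on 1 Agilent array in a single colour with Agilent Feature Extraction (version 11.5.1.1), and the deposited scanner files give spot intensity on a linear scale, after spatial and multiplicative detrending, with surrogates for signals at background, and not scaled between arrays. Per the labels' protocols, RNA was amplified with random primers and labelled with cyanine 3. A second deposited file holds intensity values of the same arrays, taken to be quantile normalized, which served as an alternative. The median of its values for Psgl1+/+ replicate 1 was 132.9. Its rows correlated with their own array at 0.9977 or more and with other arrays at 0.8088 or less.

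Control spots (1439) and outlier spots (25 to 149 an array) were left out, no spot was saturated, and spots of a probe were averaged on the log2 scale. The 75th percentile of each array was subtracted and their mean (9.54) added back. Probes that the scanner software marked as clearly over background on 4 or more of the 8 arrays (51380 of 60273) were fitted with limma (version 3.58.1, R 4.3.3), Psgl1-/- minus Psgl1+/+, two-sided, with Benjamini-Hochberg adjustment over all of them and a threshold of 0.05; all 18 member probes were among them and none lacked a value. Probes were named through RefSeq accessions (31064), symbols (8935) or older symbols (420) of assembly GRCm38.p6. The limma step was tested on simulated data with noise drawn independently for each probe and array. Effects shared by a slide row or column were not simulated, so that test does not cover them. All arrays lay on 1 slide, genotypes in separate slide columns, so column and genotype cannot be told apart. The number of arrays limits precision. The named list genes are, for each list, those past the threshold, otherwise the 3 with the smallest unadjusted p. The members and lists were chosen with earlier results of these data known. Plots were drawn with matplotlib 3.10.9.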

Additional observations from a re-analysis of the deposited data

Results flagged for a closer look

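In 2 of 36 groups (18 probes in 2 genotypes) 1 array stood far from the other 3 by Dixon's test; chance flags about 1 group in 20. Msn probe 2 was 12.82 on Psgl1-/- replicate 5, where the other Psgl1-/- arrays were at 11.07 to 11.32. Pik3cg probe 2 was 12.54 on Psgl1-/- replicate 8, where the other Psgl1-/- arrays were at 7.86 to 8.14.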

How the results depend on the processing

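No member probe passed the threshold in any of 24 settings (limma; as reported, 1 had an unadjusted p under 0.05). Lyn probe 1 had an unadjusted limma p under 0.05 with quantile normalization (0.0339), cyclic loess (0.0357), normexp (0.0282) and the deposited values (0.0335). For Ezr it was above 0.05 in several settings, among them normexp (0.0588), slide row as a block (0.0593) and array weights (0.0585). The 9 called probes became 1 with normexp and quantile normalization, 1 with 1 probe for each gene, 1 with slide row as a block, 4 with array weights, and 0 in each slide row alone and each pair of slide columns alone. With 1 array left out they ranged from 0 to 23: 0, 4, 13 and 5 without Psgl1+/+ replicates 1 to 4, and 3, 23, 0 and 3 without Psgl1-/- replicates 5 to 8. The split of all probes by an unadjusted p under 0.05 moved with the scaling: as reported 834 were higher and 4523 lower, with quantile normalization 1113 and 2143, with equal array medians 1050 and 2218, with normexp 1000 and 2259, and with cyclic loess 1519 and 897. For the deposited values it was 1101 and 2056. Likewise 42 of the 87 list genes were above 0 as reported, and 50 to 60 under these 5 alternatives. The list genes that passed ranged from 0 to 1 with 1 array left out.

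The differences of Ezr, Rdx probe 1, Snx20, Lyn probe 1, Syk probes 2 and 4 and Pik3cg probe 1 kept their sign in every setting that tested them. Msn probe 1 turned to 0.20 with quantile normalization, 0.12 with cyclic loess, 0.17 with normexp and 0.20 for the deposited values, and Rdx probe 2 to 0.04 with cyclic loess and 0.48 with normexp. With 1 array left out, the differences of probes that changed sign ranged from -0.61 to 0.00 (Msn probe 1), -0.31 to 0.56 (Msn probe 2), -2.09 to 1.58 (Rdx probe 2), -0.68 to 0.57 (Fgr), -1.08 to 0.15 (Lyn probe 3), -0.05 to 2.09 (Syk probe 3), -1.01 to 2.12 (Plcg2) and -0.56 to 1.00 (Pik3cg probe 2). The settings by slide position were chosen after seeing the data and hold 2 arrays a genotype. In slide columns 1 and 3 (replicates 5, 6, 1 and 2) the signs turned for Msn probe 3 (0.07), Fgr (1.37), Lyn probe 2 (0.79), Lyn probe 3 (0.39), Plcg2 (-1.82) and Pik3cg probe 2 (-0.96), and in columns 2 and 4 for Msn probe 2 (-0.03), Rdx probe 2 (5.64) and Syk probe 3 (-0.79). In slide row 1 they turned for Rdx probe 2 (3.35), Fgr (0.44), Lyn probe 2 (0.19) and Plcg2 (-4.09), and in row 2 for Msn probe 3 (0.07), Lyn probe 3 (0.10), Syk probe 1 (-0.02) and Pik3cg probe 2 (-0.12). The cause was not tested. No paired analysis was possible because the genotypes share no replicate number. Slide row, which holds 2 arrays of each genotype, was the block that could be fitted.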

Other observations

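One further probe, not counted among the 18, lists a Lyn transcript among the accessions it matches but is named for another transcript record. Its log2 signal was 4.42, 8.03, 12.50 and 5.21 on Psgl1-/- replicates 5 to 8 and 4.33, 12.21, 6.57 and 5.04 on Psgl1+/+ replicates 1 to 4. The means were 7.54 and 7.04, a difference of 0.51, and 1 array of each genotype stood above 12.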
